A study of Drosophila melanogaster with 2 samples.

Results

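The 362 peaks described here are the binding sites of the tagged protein CG10348 whose deposited chromosome was X, out of 1814 peaks in the conservative set of the whole series. Members were taken by chromosome alone, but X was picked as the arm to describe with earlier results of these data known, so the p-values given here are not those of a comparison chosen independently of the data. The conservative set held 1799 peaks on the main chromosome arms. The 1157 peaks of 2L, 3L and 3R combined served as the comparison. Each peak was represented by its summit, the base at which the authors placed the maximum.

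The material was whole pupae of Drosophila melanogaster aged 2 days, in 1 group of 2 biological replicates. The strain, labelled CG10348-GFP, carried an insertion that expressed CG10348 fused to eGFP, and sonicated chromatin was precipitated with an antibody against GFP. No second genotype, treatment or age was present, so all comparisons were between places in the genome. Where the transgene was inserted was not given, and the sex of the pupae was recorded as not collected. Chromatin of all tissues was mixed, so strong binding in few cells and weak binding in many could not be told apart.

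CG10348 is a gene on 2L that encodes a predicted C2H2 zinc-finger protein, a class of proteins that commonly bind DNA through short sequence motifs. The X chromosome of Drosophila is present in 1 copy in males and as a pair in females. In males it is covered by the dosage compensation complex, which spreads from GA-rich entry sites and is associated with raised transcription of X-linked genes. X also carries a well-studied set of developmental genes near its telomeric end, where base 1 of the deposited coordinates lies.

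The summits that best show the sequence under X peaks are printed first. They were taken on the plus strand of the dm6 assembly from the RefSeq genome, 5′ to 3′, as the 100 bp centred on the summit, trimmed where an annotated UTR began. Capitals mark runs of 6 or more A or T bases, the feature that recurred at these summits. The set holds the strongest X peak, at the promoter of Ugalt (X:2703853-2703940), the next strongest, in the long non-coding RNA gene lncRNA:Vinr (X:12751356-12751455), and the peaks of ph-p (X:2137305-2137404) and Raf (X:2300664-2300763). It then gives the strongest peak in each of the crowded stretches at Tlk (X:3742187-3742286), CHES-1-like (X:7706957-7707056), Mnt (X:3695234-3695333) and brk (X:7307101-7307200).
Ugalt: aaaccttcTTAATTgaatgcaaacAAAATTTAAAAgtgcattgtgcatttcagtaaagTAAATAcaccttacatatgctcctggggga
lncRNA:Vinr: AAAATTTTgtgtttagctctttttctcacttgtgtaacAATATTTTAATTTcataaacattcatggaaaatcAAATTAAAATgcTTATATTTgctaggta
ph-p: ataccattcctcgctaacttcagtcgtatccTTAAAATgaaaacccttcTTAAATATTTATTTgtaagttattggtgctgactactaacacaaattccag
Raf: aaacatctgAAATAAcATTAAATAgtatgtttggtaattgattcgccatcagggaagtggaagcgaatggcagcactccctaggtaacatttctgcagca
Tlk: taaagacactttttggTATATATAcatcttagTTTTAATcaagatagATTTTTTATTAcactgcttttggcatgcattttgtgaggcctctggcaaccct
CHES-1-like: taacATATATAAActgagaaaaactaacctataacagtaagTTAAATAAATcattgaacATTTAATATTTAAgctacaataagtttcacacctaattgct
Mnt: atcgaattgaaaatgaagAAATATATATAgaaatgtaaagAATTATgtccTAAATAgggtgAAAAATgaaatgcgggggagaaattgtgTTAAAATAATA
brk: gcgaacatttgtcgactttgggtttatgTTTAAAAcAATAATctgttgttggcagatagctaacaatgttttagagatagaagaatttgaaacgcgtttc

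The stretch at lncRNA:Vinr held 4 such runs with 39 bases in all, and the longest was 13 bases. The longest run at the brk summit was 7 bases, and at the ph-p summit 14 bases. Over all X summits the longest run in the 100 bp had a median of 9 bases, against 10 bases on 2L, 3L and 3R. The mean number of bases in such runs was 22.6 ± 14.97 (SD, n = 362 summits) on X. Windows 300 bp to each side of the same summits averaged 13.8 bases. On the 3 other arms the summits averaged 25.1 ± 16.6 (SD, n = 1157) and the flanks 12.7.

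The strongest X peaks were strong in both replicates, and they lay at genes of unrelated roles. Strength is the authors' deposited signal, whose scale was not stated, and each replicate value was read from that replicate's own ranked list. The peak at Ugalt, which encodes a Golgi transporter of UDP-galactose, had a pooled signal of 932, with 523 in replicate 1 and 414 in replicate 2. Its summit lay 39 bp upstream of the TSS, outside annotated protein-coding genes. The peak in lncRNA:Vinr reached 622 in the pooled samples, 355 in replicate 1 and 279 in replicate 2. The protein-coding gene with the nearest TSS was CG4004, 5089 bp away. The start of a non-coding gene, lncRNA:CR44619, was nearer, at X:12751867 on the plus strand. The peak at ph-p, which encodes a subunit of the Polycomb repressive complex PRC1, had signals of 519.6, 244 and 265 in the same order.

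Next came CG32772 at 426, Raf at 411, CG3726 at 409, MFS10 at 406 and norpA at 377. Raf is the kinase that acts below Ras in receptor tyrosine kinase signalling, and norpA encodes the phospholipase C of phototransduction. The Raf summit lay in an intron 5248 bp from the nearest TSS, and its signal was 254 in replicate 1 and 156 in replicate 2. The norpA summit also lay in an intron, 1392 bp from a TSS, and had 199 and 184. Atf3, a bZIP transcription factor gene, had a peak of 354 located 197 bp upstream and another of 257 located 1890 bp upstream. The 25 strongest X peaks ended at prage with 243 and also held peaks at TRAM, Paics, Tlk, Ptp4E, NFAT, pigs, CG3009, CG17896, dnc, Tsp5D, pico, Hexo2 and Act5C, with ph-p and Atf3 each named by a second peak.

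All 25 were in the thresholded list of each replicate, and replicate 1 had the higher value at 20 of them. Of the 25 summits, 14 lay within 1 kb of a TSS, 5 within 200 bp, 10 in introns and 10 outside protein-coding genes. All 25 were lower in G+C than their flanks, with a mean of 31.4% ± 5.84 (SD, n = 25 summits). X held 362 of the 1519 peaks on these 4 arms, 23.8%. Among the 25 strongest of the main arms it held 3 of 19, 15.8%, among the 100 strongest 19 of 80, among the 200 strongest 42 of 161, 26.1%, and among the 500 strongest 113 of 416, 27.2%.

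**Figure D1:**
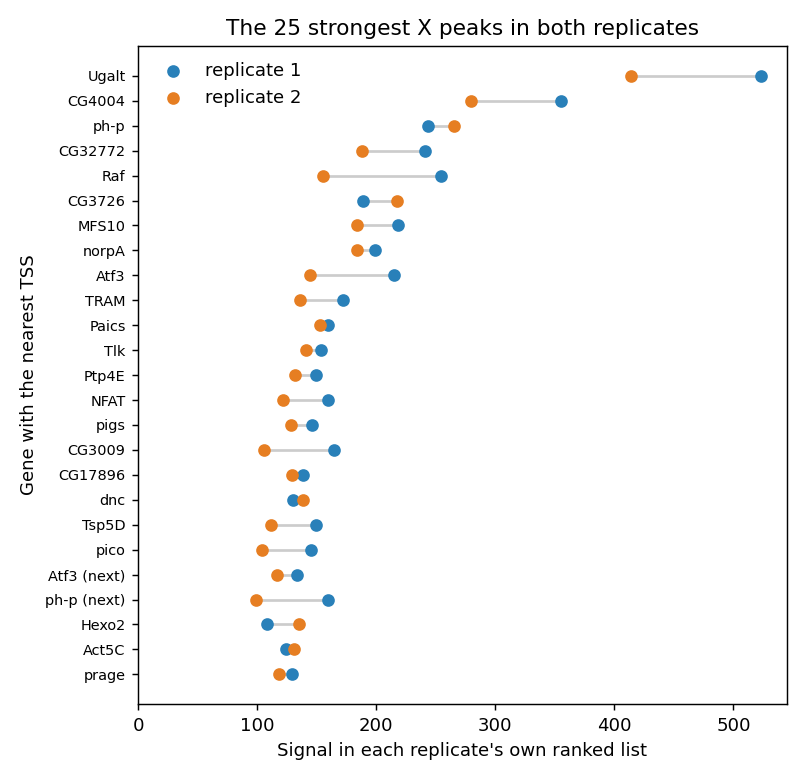
Signal in replicate 1 (blue) and replicate 2 (orange) of the 25 strongest X peaks, named by the gene with the nearest TSS, with a grey line joining the values of a peak. Ugalt stands apart at 523 and 414, and replicate 1 is higher at 20 of the 25 peaks.

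Summits were unevenly spread along X, with the telomeric side the richer. From base 1 to base 5885567 of the 23542271 bp chromosome there were 124 summits, or 21.1 per Mb. The next stretch of that length held 117 summits (19.9 per Mb), the following one 72 (12.2 per Mb) and the one nearest the centromere 49 (8.33 per Mb). Ranked regions that did not pass fell much less steeply, from 5912 to 5989, 5498 and 5057. The median signal of the peaks went from 101 to 93.8, 91.0 and 79.1 over the same stretches. Protein-coding genes numbered 531, 596, 619 and 450, so the order of the summits was not that of the genes.

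Each arm was also cut into 10 bins of equal length, with bin 1 at the telomere. In bins 2 and 3, X had 23.8 and 22.9 summits per Mb, where 2L, 3L and 3R together had 16.6 and 14.9. The order was turned in bin 1, with 19.5 on X and 23.3 on the other arms. Bin 7 of X held 10.6 per Mb against 14.6, and bin 10, next to the centromere, 4.67 per Mb against 0.478. The single arms differed: in bin 2, 2L had 17.4, 3L 22.8 and 3R 10.6 per Mb, and in bin 3 they had 14.5, 12.1 and 17.8. A telomeric side richer than the centromeric one was not particular to X, since 3L went from 27.4 per Mb in bin 1 to 0.356 in bin 10. These densities are descriptions and were not tested bin by bin.

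**Figure D2:**
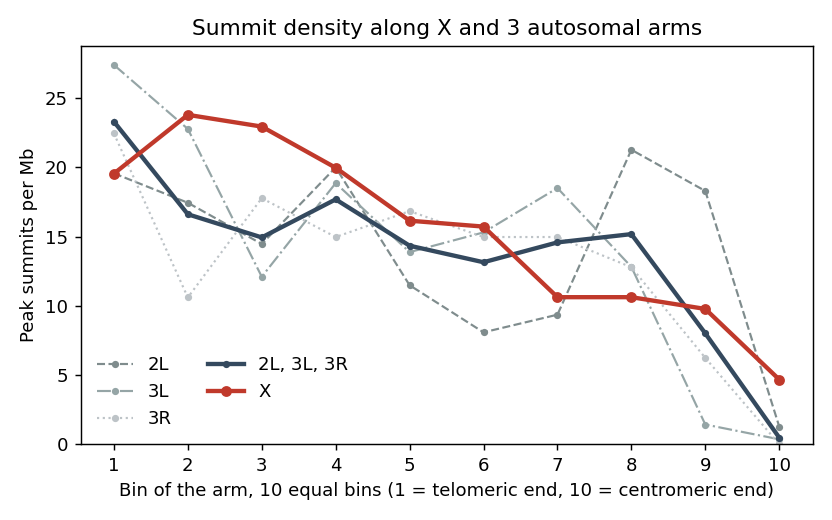
Summits per Mb in 10 equal bins of X (red) and of 2L, 3L and 3R together (dark blue) and singly (grey broken lines), from the telomeric to the centromeric end. X is highest in bin 2, at 23.8 per Mb, and falls to 4.67 per Mb in bin 10.

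As a whole, X held 15.4 summits per Mb and the other arms 13.8 per Mb, with 14.1 on 2L, 14.3 on 3L and 13.2 on 3R. The ratio was 1.11 (95% interval 0.986 to 1.25), which did not pass the threshold of 0.05 (two-sided exact binomial test on bases, adjusted p = 0.116). X had fewer protein-coding genes per Mb than the other arms, 93.3 against 105, and 16.5 summits per 100 genes against 13.1. The density difference passed in the peaks of each replicate alone, at 1.25 in replicate 1 (adjusted p = 0.00383) and 1.26 in replicate 2 (adjusted p = 0.0117), by the same exact test. Without the 24 summits inside the long X genes CG1677 and kirre, the ratio in the pooled set was 1.04 (exact binomial test, adjusted p = 0.599). Nothing was left out on the other arms.

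Across the main arms, 1.33% of the ranked regions of the pooled samples passed the authors' reproducibility threshold. On X the share was 1.59% (95% Wilson interval 1.43 to 1.76%) and on 2L, 3L and 3R 1.33% (1.26 to 1.41%). This gave an odds ratio of 1.19 (1.06 to 1.34), with an adjusted p of 0.0094 (two-sided Fisher's exact test). The call ended when the 24 summits inside the long genes CG1677 and kirre were left out, at an odds ratio of 1.11 and an adjusted p of 0.16 (Fisher's exact test); nothing was left out on the other arms. X also had fewer ranked regions that did not pass, 954 per Mb against 1022, and their median signal was lower, 14.5 against 16.5. The copy number of X in the pupae was not measured, and its part in these values was not tested.

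Close neighbours were more frequent on X. A summit had another summit within 5 kb in 171 of 362 cases on X, 47.2% (42.2 to 52.4%), and in 421 of 1157 cases on the other arms, 36.4% (33.7 to 39.2%). X exceeded the others with an odds ratio of 1.57 (1.22 to 2.00) and an adjusted p of 0.00119 (two-sided Fisher's exact test). The 3 other arms lay close to each other, at 34.0% on 2L, 36.7% on 3L and 37.9% on 3R, and X lay above each. Neighbouring summits were counted each in turn and summits are not independent replicates, so these p-values are too small.

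The median distance to the nearest other summit was 5334 bp on X and 10547 bp on the other arms. The share with a neighbour within 1 kb was 23.2% against 16.9%, and within 10 kb 62.2% against 48.9%. At 50 kb the shares were 87.6% and 86.3%. In windows of 100 kb, the variance of the summit counts over their mean was 2.41 on X. It was 2.53 on 2L, 2.20 on 3L and 1.87 on 3R, so X lay within the range of the single arms. Close summits in part rested on the same signal: 20 X peaks (5.52%) shared the replicate values of another X peak, and all 14 X peaks with a signal under 20 lay within 500 bp of a stronger summit. The other arms were alike in this. There 53 peaks (4.58%) shared replicate values, and all 37 peaks with a signal under 20 lay within 500 bp of a stronger summit. Without summits within 500 bp of a stronger one, the odds ratio was 1.62, with 40.4% on X and 29.5% on the other arms (Fisher's exact test, adjusted p = 0.000736). The share also moves with density, which was 1.11 times as high on X.

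**Figure D3:**
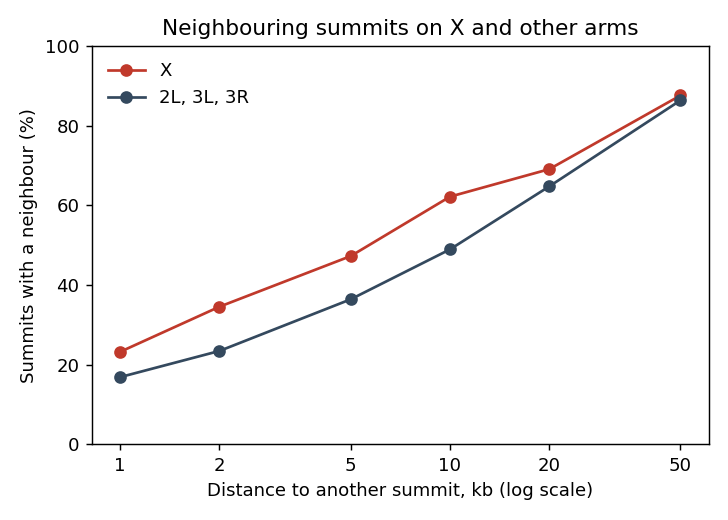
Percentage of summits that had another summit within the distance on the horizontal axis (log scale), for X (red) and for 2L, 3L and 3R together (dark blue). X is higher at each distance, by most at 10 kb (62.2% against 48.9%) and by least at 50 kb (87.6% against 86.3%).

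Runs of 4 or more summits with gaps of at most 5 kb numbered 12 on X and 10 on the other arms. They held 60 X summits, 16.6%, and 45 summits of the other arms, 3.89%. With the close summits left out, 9 runs on X held 13.6% of the summits and 7 runs elsewhere held 2.91%. The largest run had 7 summits on X and 7 on the other arms. No test was made of the runs.

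The run of 7 lay along Mnt (X:3671801-3701672), the gene of a Max partner that opposes Myc. It spanned 21444 bp of an approximately 29.9 kb gene, from X:3673841 to X:3695284. Its peaks were of middling strength, from 60.1 to 116 with a median of 107. The strongest had 65.6 in replicate 1 and 45.8 in replicate 2, and 6 of the 7 were in the list of replicate 1 and 4 in that of replicate 2. Only 1 of the 7 lay within 1 kb of a TSS. Myc itself, also on X, had peaks assigned by nearest TSS of up to 217, and none of them within 1 kb of a TSS.

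CHES-1-like, a forkhead transcription factor gene, carried 6 summits over 14844 bp, with signals from 64.7 to 235. The strongest had 113 in replicate 1 and 116 in replicate 2, so the replicates differed little there. Tlk, the gene of a kinase linked to chromatin assembly, lay next to Mnt and carried 6 summits, 5 of them in a run of 8471 bp. The strongest, at 296 with 153 and 141 in the replicates, was in an intron 2340 bp from a TSS. Raf and its neighbour CG2865 shared a run of 6 summits over 12779 bp, in which signals reached 411 with a median of 95.01.

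The tightest strong run held 6 summits in 4780 bp between CG4004 and Paics, from X:12751406 to X:12756185. None of the 6 lay within 1 kb of a protein-coding TSS and none in a protein-coding gene. The annotation places lncRNA:Vinr (X:12749894-12752350) and lncRNA:CR44619 (X:12751867-12754571) there. The latter is on the plus strand, so its start lay within 1 kb of the summits at X:12751406 and X:12752359. TSSs of non-coding genes were not counted in the distances given here. The pooled signals in order along the chromosome were 622, 224, 310, 90.9, 87.0 and 48.6. The last pair shared its replicate values of 61.6 and 31.3, which leaves 5 summits with replicate values of their own.

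The stretch around brk and CBP held a pair of runs. The gene brk encodes a repressor of Dpp target genes. Upstream of it, 5 summits spanned 7574 bp with signals up to 96.5, and the strongest had 67.6 in replicate 1 and 31.2 in replicate 2. In this run 1 summit was in the list of replicate 1 and 3 were in that of replicate 2. Upstream of CBP, 5 summits spanned 2111 bp with signals from 6.199 to 126, and 3 of them were in the list of replicate 1 and 1 in that of replicate 2. In these 5, a pair of summits shared the replicate values 40.8 and 31.0, and another pair shared 47.9 and 30.3. All 10 lay within the annotated span of CG1677 (X:7281089-7405797), a gene of 124.7 kb in which smaller genes are nested, and so counted as intronic.

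The other runs of 4 were at LPCAT and Hex-A, at Ptpmeg2, at Unc-76, at Evi5 and Sk1, and inside kirre. For the run inside kirre the nearest TSS, that of CG4116, was more than 10 kb away, so no gene was assigned. Ptpmeg2 encodes a protein tyrosine phosphatase, Unc-76 an adaptor of kinesin in axonal transport, and Hex-A a hexokinase. All 4 summits of the Ptpmeg2 run lay within 1 kb of a TSS, and none of the Unc-76 run. All 4 Unc-76 peaks overlapped peaks in the lists of both replicates, with the strongest at 169, 74.5 in replicate 1 and 95.1 in replicate 2. The weakest of the 4 had a pooled signal of 6.65 and lay within 500 bp of a stronger summit, so the 4 need not be separate sites.

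On a grid of 100 kb, the densest X stretches held 10 summits each, at X:12700001-12800000 (CG4004, Paics and Smr) and at X:7300001-7400000 (Dok, CBP and brk). Smr encodes a co-repressor of nuclear receptors. Close summits were counted each in turn in these stretches, so their order and ties may depend on them. No ranking was made without close summits. The next was X:2100001-2200000 with 8 summits, 7 of them within 1 kb of a TSS, at ph-p, ph-d, csw and CG3630. The gene csw encodes an SH2-domain phosphatase of receptor tyrosine kinase signalling, and ph-d the twin of ph-p in the Polycomb complex. The adjoining X:2000001-2100000 held 7 summits at moody, Unc-76, Rtca and CG4199, and X:3600001-3700000 held the 7 of Mnt.

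A further 8 stretches held 6 summits each. The 5 of them with the highest summed signal were X:2700001-2800000 with Ugalt, CG32795, Syx4 and CG2681, X:4900001-5000000 led by CG32772 and Ptp4E, X:1900001-2000000 with Hr4, X:3700001-3800000 with Tlk, and X:2500001-2600000 with egh and trol. Hr4 is a nuclear receptor gene of the ecdysone response and held all 6 summits of its stretch within its 66.0 kb span, none within 1 kb of a TSS. Of the 10 stretches named, 7 lay between base 1900001 and base 3800000. The other stretches of 6 were X:5700001-5800000, X:21000001-21100000 and X:3000001-3100000, and with them 8 of 13 lay there. The Mb from 2000001 to 3000000 had 40 summits and 126 genes, and 50% of its summits were within 1 kb of a TSS. The next Mb had 36 summits but only 55 genes, and 19.4% were within 1 kb of a TSS. On the other arms, the richest 100 kb held 15 summits and lay on 2L around CG10348 itself.

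Genes with several summits made up a larger share on X. By nearest TSS within 10 kb, 329 X summits fell to 218 genes, and 11 of these genes (5.05%) had 4 or more. On the other arms 12 of 791 genes (1.52%) had 4 or more. The 11 were Mnt with 7, Tlk and CHES-1-like with 6, Ptpmeg2 and CBP with 5, and Raf, Paics, Unc-76, unc-119, CG32512 and brk with 4. This is the same crowding seen by gene and adds no independent evidence.

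Position relative to genes differed from the other arms in introns and within 200 bp of a TSS. The shares within 500 bp and within 1 kb of a TSS did not pass the threshold. Within 1 kb of a TSS lay 165 of 362 X summits, 45.6% (40.5 to 50.7%), and 551 of 1157 on the other arms, 47.6% (44.8 to 50.5%). Between them the odds ratio was 0.921 (0.721 to 1.18; two-sided Fisher's exact test, adjusted p = 0.511), an interval that allows a difference of either sign. Of the X summits, 64 (17.7%) lay within 200 bp of a TSS, against 293 (25.3%). At that distance the odds ratio was 0.633 (Fisher's exact test, adjusted p = 0.00627). Within 500 bp the shares were 33.1% on X and 37.2% elsewhere, an odds ratio of 0.838 (Fisher's exact test, adjusted p = 0.19). On 2L, 3L and 3R singly the shares within 200 bp were 25.6%, 25.3% and 25.1%.

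Introns held 244 X summits, 67.4%, against 619, 53.5%, on the other arms. This and 6 related comparisons were chosen after their values were seen, and adjusted over the 7. The odds ratio was 1.80 (1.39 to 2.33; Fisher's exact test, adjusted p = 1.68e-05). Outside protein-coding genes lay 24.6% of X summits against 37.5%, an odds ratio of 0.543 (Fisher's exact test, adjusted p = 1.68e-05). Such sequence was also scarcer on X as a whole, at 29.3% of bases against 33.5%, and held 25.6% against 31.2% of the ranked regions that did not pass. Introns made up 44.2% of X bases and 42.0% of the bases of the other arms, and 43.0% and 39.6% of the ranked regions that did not pass. Without the summits inside CG1677 and kirre the odds ratio was 1.62, with 65.1% on X.

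Of protein-coding genes on all main arms, 7.7% had a summit within 1 kb of a TSS. On X it was 169 of 2196 genes, 7.70% (6.65 to 8.89%), against 718 of 8817, 8.14% (7.59 to 8.73%), on the other arms. The odds ratio was 0.940 (0.785 to 1.12; Fisher's exact test, adjusted p = 0.511). It was above 1 in the peaks of replicate 1 alone (1.07) and of replicate 2 alone (1.18), so no direction can be given.

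Gene lists drawn up by assigned role were read against that share of 7.70%, as a description. The roles of the listed genes were not checked here. Of 33 signalling genes on X, 8 had a summit within 1 kb of a TSS, with the strongest such peaks at pigs (276), sgg (187), dlg1 (121), egh (117) and csw (116). The summit of Raf near a TSS had 95.3, below its intronic peak. The gene sgg encodes the fly GSK3 kinase of Wnt signalling, and its peak (94.3 and 88.2 in the replicates) lay 179 bp from a TSS. Among 38 neuronal genes 7 had one, led by dnc, the cAMP phosphodiesterase gene, at 269. Next came elav, which encodes a neuronal RNA-binding protein, at 198 with 115.2 in replicate 1 and 87.7 in replicate 2, then mgl at 139, Syx4 at 125 and CG34417 at 108. Of 22 chromatin genes 4 had one, namely ph-p, mei-41, ph-d and Top1, and of 38 transcription factor genes 3, namely CHES-1-like, Mnt and Smox. The summit counted for mei-41 lay 155 bp from its TSS and nearer that of TH1, at 105 bp.

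None of 27 translation and ribosome genes on X had a summit within 1 kb of a TSS, nor any of 19 ecdysone and cuticle genes. Within the bodies of the latter there were summits at 4, namely Hr4, br, dy and sn. Of all 2196 protein-coding genes on X, 252 (11.5%) had a summit in the gene or near its TSS. Of 3 dosage compensation genes (mof, roX1 and roX2) and 6 genes of X counting and sex determination on X, none had a summit in the gene or near its TSS. The lists are short, and no test was made of these counts.

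X peaks had somewhat higher signals over the whole set, a difference that did not pass the threshold among peaks of the top score. The lowest, median and highest pooled signals were 2.402, 92.6 and 932 on X, and 2.03, 83.6 and 1064 on the other arms, so the ranges overlapped almost wholly. In replicate 1 the medians were 54.1 and 47.5, and in replicate 2 43.4 and 38.8. Above the median of the 4 arms together, 85.6, lay 57.2% of X peaks (52.0 to 62.2%) and 47.7% of the others (44.8 to 50.6%). The odds ratio was 1.46 (1.15 to 1.87; two-sided Fisher's exact test of the median, adjusted p = 0.00521). Among peaks at the top deposited score of 1000 it was 1.06 (Fisher's exact test, adjusted p = 0.828), and in each replicate's own peaks 1.05 and 1.09.

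Peaks within 1 kb of a TSS had a median of 102 on X (n = 165) and 96.9 elsewhere (n = 551), and the difference did not pass the threshold there (odds ratio 1.19, adjusted p = 0.482 by Fisher's exact test). Beyond 1 kb the medians were 84.9 and 76.2. More X peaks had the top score, 82.3% against 72.3% (odds ratio 1.79, adjusted p = 0.000236 by Fisher's exact test, chosen after seeing the values). In the same comparison, 49.7% of X peaks were in the thresholded lists of both replicates, against 40.97% (odds ratio 1.43, adjusted p = 0.00411 by Fisher's exact test).

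The replicates were compared with each other on X and elsewhere. On the log2 scale, replicate 1 exceeded replicate 2 by a median of 0.25 on X (SD 0.46, n = 360 peaks) and 0.30 on the other arms (SD 0.47, n = 1142). For the share above the common median the odds ratio was 0.890, and the difference did not pass the threshold (0.697 to 1.14; Fisher's exact test, adjusted p = 0.469).

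**Figure D4:**
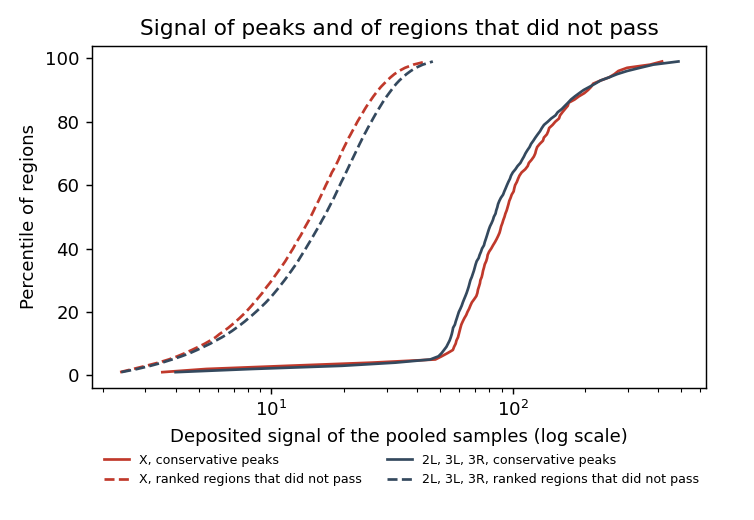
Percentile of regions against the deposited signal of the pooled samples (log scale), for peaks (solid) and for ranked regions that did not pass (broken), on X (red) and on 2L, 3L and 3R (dark blue). Peaks on X lie to the right at the median, 92.6 against 83.6, whereas regions that did not pass lie to the left, 14.5 against 16.5.

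G+C fell at X summits as it did at the others, and whether the dip was shallower on X depended on which flanks it was set against. In the 100 bp at the summit it averaged 35.1% ± 9.25 (SD, n = 362) on X and 35.0% ± 10.8 (SD, n = 1157) on the other arms, with medians of 34% and 32%. Below the common median lay 43.9% of X summits against 50.3%, which did not pass the threshold (odds ratio 0.774, adjusted p = 0.0632 by Fisher's exact test). With windows of 200 bp the odds ratio was 0.643 and passed (Fisher's exact test, adjusted p = 0.00109), and with 50 bp it was 1.01.

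The difference between the summit and windows centred 300 bp to each side, in percentage points of G+C, averaged −8.51 ± 11.2 (SD, n = 362) on X and −9.90 ± 13.5 (SD, n = 1157) elsewhere, with medians of −9 and −12. A deficit below the common median occurred at 143 X summits, 39.5% (34.6 to 44.6%), against 598, 51.7% (48.8 to 54.6%). The odds ratio was 0.610 (0.476 to 0.781; Fisher's exact test, adjusted p = 0.00048). Deficits of over 20 points occurred at 14.1% and 21.8% of summits. The other arms were not alike in the mean, at −10.8 on 2L, −8.56 on 3L and −10.5 on 3R, so the mean of X was close to that of 3L. The share below the common median was 56.3% on 2L, 48.4% on 3L and 51.2% on 3R.

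The summits differed little in the mean, and the flanks at 300 bp averaged 43.6% G+C on X and 44.9% on the other arms, so nearly all of the smaller mean deficit lay in the flanks. Nearer flanks, examined after seeing the data, gave no such difference. Against windows centred 150 bp away the mean deficit was −10.2 ± 11.3 (SD, n = 362) on X and −9.66 ± 11.6 (SD, n = 1157) elsewhere, with an odds ratio of 0.969 (Fisher's exact test, adjusted p = 0.81). With 20 bp windows and flanks 140 bp away the means were −13.0 and −10.8, and the odds ratio turned to 1.16 (Fisher's exact test, adjusted p = 0.342). Most X summits, 80.4%, were lower than their flanks at 300 bp, as were 78.8% elsewhere. Within 1 kb of a TSS the mean deficit was −8.87 on X and −11.1 on the other arms, and beyond 1 kb −8.21 and −8.85. Deep dips were seen on X too, among them a Tlk summit at 16% G+C with flanks at 51%, and the second ph-p summit at 19% with flanks at 41%.

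**Figure D5:**
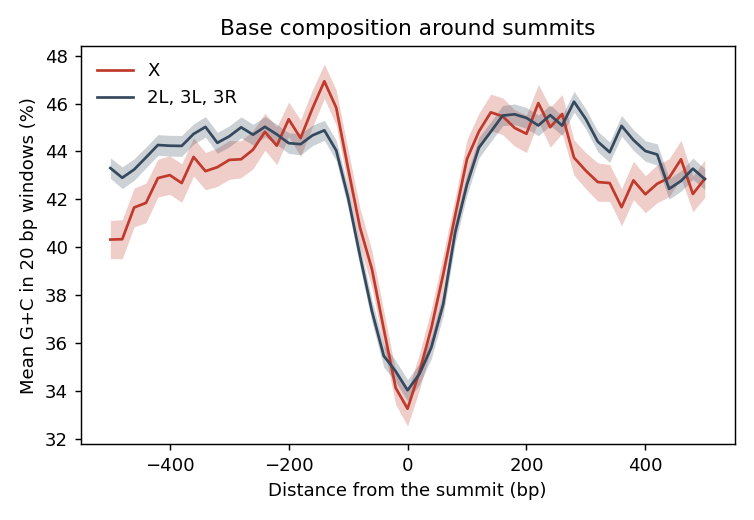
Mean G+C in 20 bp windows against distance from the summit, for X (red, n = 362) and 2L, 3L and 3R (dark blue, n = 1157), with bands of 1 SEM over summits. Both lines dip at the summit, to 33.2% on X and 34.0% elsewhere, X is higher at −140 bp (46.9% against 44.9%), and the X line lies below the other at most distances beyond 300 bp.

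Short sequences were then sought at the summits. Of 10 sequences searched on both strands in the 100 bp, none differed between X and the other arms after adjustment over the 10. The smallest p belonged to TTAAAA, found at 27.3% of X summits and 33.9% of the others (two-sided Fisher's exact test, p = 0.0205, adjusted p = 0.205). In the windows to each side of X summits it was found in 14.8%, and in 15.2% of 100 bp windows spaced 500 bp apart along X. AAATAT was found at 28.7% of X summits and 31.5% of the others, against 17.1% of X windows. These 2 sequences overlap the AT runs shown in capitals above.

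GAGAGAG, which occurs in the entry sites of the dosage compensation complex, was in 0.829% of X summit windows and 1.04% of the others. It was in 5.52% of X flanks and 3.28% of the other flanks, and in 1.53% of windows along X and 1.18% of those along the other arms. CACACACA was in 2.21% of X summit windows and in 8.43% of X flanks, against 1.47% and 3.93% on the other arms. GCCAT, the core bound by Pho, was in 10.5% of X summit windows and in 20.2% of windows along X, against 13.9% and 19.7% on the other arms. TATCGATA was in 0 of 362 X summit windows and in 0.381% of windows along X, against 0.432% and 0.239%. A match or its lack says nothing about whether a factor was bound.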

How the data were processed

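The authors deposited peak lists on dm6, per the labels, ranked or thresholded by the irreproducible discovery rate (IDR). Which aligner and peak caller were used is not given in the sources used here. The control is not analysed here. The deposited signal is the authors' peak strength, on an unstated scale, and served only to order and describe regions of 1 list at a time. The deposited score is the authors' scaled IDR, from 830 to a cap of 1000 in the thresholded lists. Replicate signals came from the overlapping region (at least 1 bp) of each replicate's own deposited ranked list. The conservative and ranked lists pooled both replicates. No read counts were in the lists, so depth is unknown. The 95% intervals were Wilson intervals for shares and exact intervals for odds ratios and the density ratio. They cover counting error of summits and genes only.

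Summits were set against Ensembl release 115 TSSs of 13945 protein-coding genes and the RefSeq genome of the same assembly. Each summit was assigned to the nearest TSS within 10 kb. The background was 133555 ranked regions that touched no conservative peak and had a score below the lowest of the conservative peaks. The 9 main comparisons used exact binomial or Fisher's exact tests (two-sided, scipy 1.17.1), with Benjamini-Hochberg adjustment over the 9. Medians were compared by the exact median test. Summits are not independent replicates, the labels name 1 possible control for both replicates, and p-values describe these 2 samples alone. In simulated data the clustering test passed too often where no difference was planted.

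Named genes were those nearest the 25 strongest X peaks, up to 4 in each of the 10 densest stretches (ties by summed signal), those with 4 or more summits, and up to 5 list members with a summit within 1 kb of a TSS. Other genes were named after seeing their values. The arm, lists and comparisons were chosen with earlier results of these data known. The alternatives were the optimal set, the peaks of either replicate alone, a score of 1000, close summits left out, 2R added, the centromeric 2 Mb left out, and other distances, windows and backgrounds.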

Additional observations from a re-analysis of the deposited data

How the results depend on the processing

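The shares with a neighbour within 5 kb (10 alternatives) and the replicate ratio (8) kept their direction and side of the threshold in every alternative run. The odds ratio for the deficit of G+C against flanks did so in 12 of 14, and lost its call with flanks at 150 bp (0.969) and turned with 20 bp windows and flanks at 140 bp (1.16), both added after seeing the data. The intronic excess kept its direction and stayed past the threshold in 6 of 6 alternatives, unadjusted. The density ratio of X passed the threshold with 2R added (1.17), at a score of 1000 (1.27) and in each replicate's own peaks (1.25 to 1.26). It was nearer 1 without the summits inside CG1677 and kirre (1.04), an alternative added after seeing the data. The share of ranked regions that passed lost its call only without the summits inside CG1677 and kirre (1.11), an alternative added after seeing the data. The odds ratio of genes with a promoter summit turned to 1.01 in the optimal set and to 1.07 and 1.18 in the peaks of the replicates alone, and passed at 200 bp (0.681), as did the promoter share at 200 bp (0.633). Neither passed at 500 bp (0.843 for genes and 0.838 for the promoter share). The odds ratio for signal lost its call among promoter summits (1.19), at a score of 1000 (1.06) and in the replicates' own peaks (1.05 to 1.09). The odds ratio for summit G+C turned with windows of 50 bp (1.01) and passed with windows of 200 bp (0.643), without close summits (0.711), among promoter summits (0.563), at a score of 1000 (0.563) and in the peaks of replicate 1 alone (0.669; 0.708 in replicate 2 alone). Of the 10 densest stretches, 8 overlapped the densest of a 200 kb grid and 7 those of a 50 kb grid. The cause of these shifts was not tested. No paired analysis was possible because only 1 group was present. The limits are the unknown depth, chromatin of mixed tissues and unrecorded sex, and summits that share replicate regions.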
